A study of Drosophila melanogaster with 9 samples.

Results

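Ecdysone and juvenile hormone are the pair of lipid hormones that time moulting and metamorphosis in insects, and both remain in use in the adult fly, where they act on reproduction, metabolism, sleep and memory. A list of 38 gene symbols of hormone synthesis, reception and response was looked for by exact, case-sensitive name in tables of 17478 genes. Of these 38 symbols, 37 were found and 1 was absent: Hr3, whose gene stands in the tables under its older name Hr46. The genes were set in 7 roles: 2 subunits of the ecdysone receptor, 6 early response genes, 8 other nuclear receptors, 7 ecdysone-inducible effectors, 6 enzymes of ecdysteroid synthesis, 3 genes of juvenile hormone reception and 5 enzymes that make or break down juvenile hormone.

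RNA came from whole heads of adult Drosophila melanogaster aged 3 to 5 days, in 3 libraries each of kdm5 A512P mutants, kdm5 JmjC* mutants and wild type (WT). KDM5 is a chromatin protein with a Jumonji C (JmjC) domain that removes methyl groups from histone H3. A512P puts proline in place of an alanine of KDM5, after a variant of the human gene KDM5C linked to intellectual disability, and the JmjC* protein lacks demethylase activity. The labels give neither the sex of the flies nor how many heads went into a library, and do not say whether libraries of a genotype came from separate collections, so p-values reflect the scatter among these libraries alone, and that scatter may be technical. In bulk heads, fewer cells of a type and less RNA per cell cannot be told apart.

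The values are those of the authors' deposited tables, 1 for each mutant against WT, which give each gene a mean normalized count over all libraries, a log2 fold change of mutant over WT, its standard error (SE) and an adjusted p-value. A gene with an adjusted p is called tested, and one with an adjusted p under 0.05 is called changed. Values per library were not used here, so the depth of single libraries is unknown and the spread within a group is known only through the SE. The SE in the authors' deposited tables never exceeded 0.231, even for genes at a few counts, so fold changes have been pulled towards 0, most of all in genes with few reads, whose change is understated. To show levels by genotype, the mean normalized count was split into 3 by the 2 fold changes, taking it as the mean of 9 libraries with 3 of each genotype. These implied counts are computed values with no SD of their own, and they carry the same shrinkage. The kdm5 gene itself, named lid, had log2 fold changes of -0.08 in A512P and -0.11 in JmjC* heads in the authors' deposited tables (adjusted p = 0.61 and 0.431), and since both alleles alter the protein this does not check the labels.

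Ecdysone is made from dietary sterol by a chain of cytochrome P450 enzymes and is turned into its active form, 20-hydroxyecdysone, in target tissues. The active hormone binds EcR, which works as a dimer with Ultraspiracle (usp), and the dimer switches on early genes, many of which encode transcription factors or nuclear receptors that control later genes. Juvenile hormone is made in the corpus allatum, binds the related receptors Met and gce, and acts in large part through the zinc finger gene Kr-h1.

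In A512P heads 10 of the 35 tested hormone genes changed, 4 higher and 6 lower than in WT. That is 28.6% of the hormone genes, beside 21% of all 11608 tested genes in the authors' deposited table. The higher genes were ImpE1, Hr4, sad and phm, and the lower genes were Hr38, ImpL1, Eip71CD, Eip63F-1, Jheh3 and Eip55E. By direction, 11.4% were higher beside 10.2% of all tested genes, and 17.1% were lower beside 10.8%. The median log2 fold change of the tested hormone genes was -0.07, beside 0.0027 over all tested genes.

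In JmjC* heads 14 of 35 tested hormone genes changed, 3 higher and 11 lower. That is 40.0% of the hormone genes, beside 28.8% of all 11898 tested genes in the authors' deposited table. ImpE1, Hr4 and phm were higher, while the lower genes were the same 6 as in A512P heads together with br, Hr46, Met, Kr-h1 and jhamt. By direction, 8.57% were higher beside 14.2% of all tested genes, and 31.4% were lower beside 14.6%. The median log2 fold change of the tested hormone genes was -0.12, beside 0.011 over all tested genes. Both comparisons use the same WT libraries, so the calls shared by the mutants are not independent of each other.

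**Figure D1:**
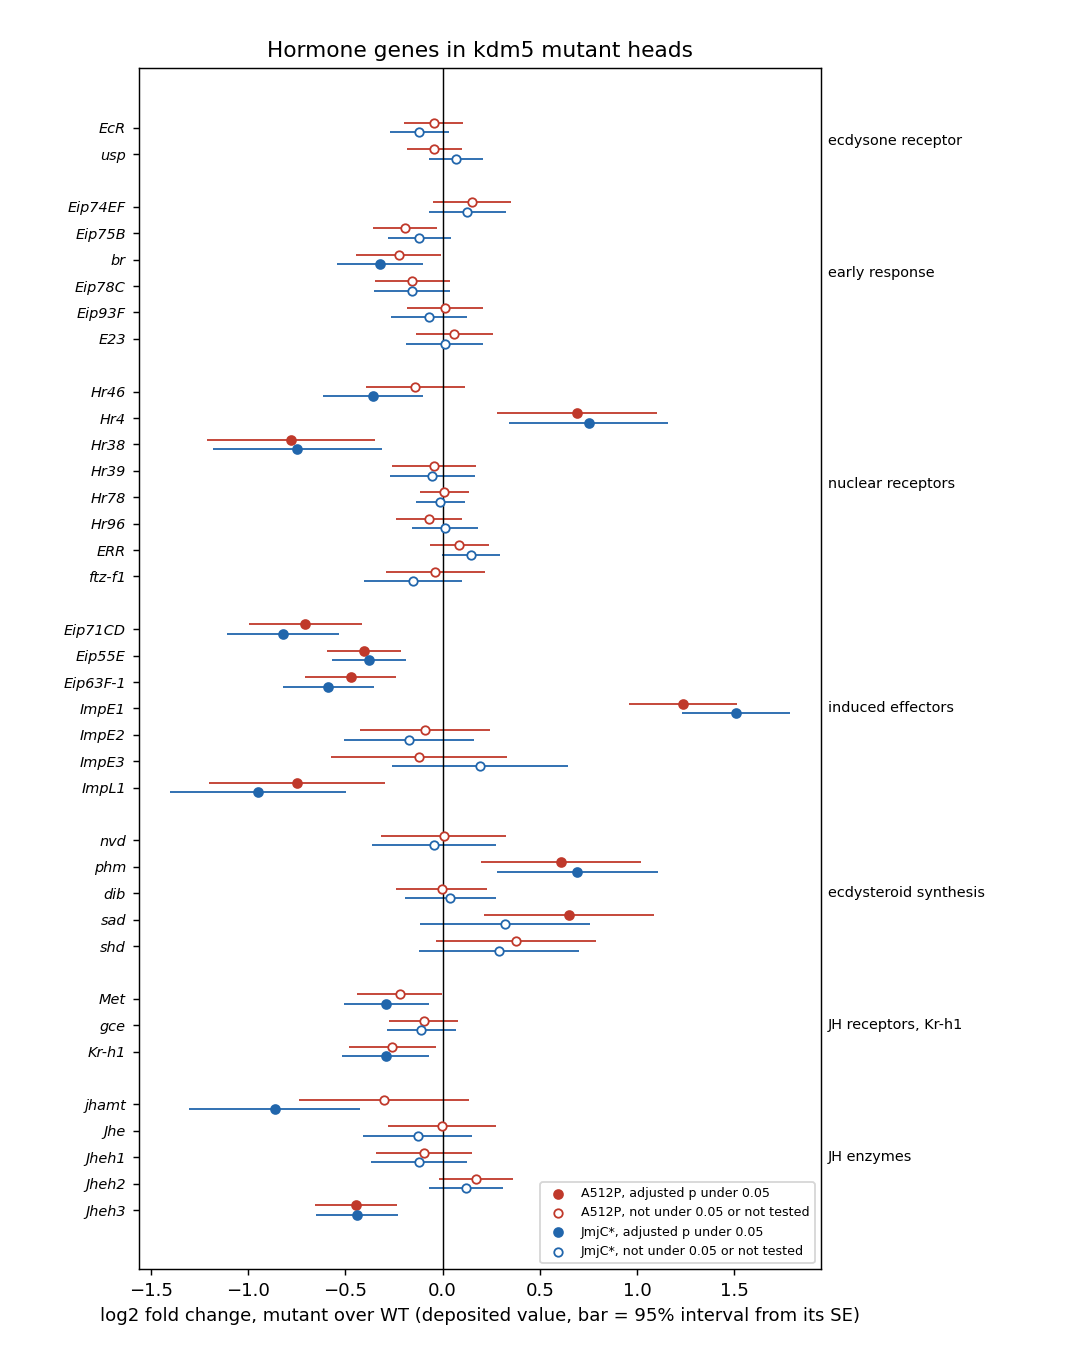
Deposited log2 fold change of each hormone gene, mutant over WT, for A512P (red) and JmjC* (blue); bars are 95% intervals computed from the deposited SE, filled points have an adjusted p under 0.05, and genes are grouped by role. ImpE1 stands farthest to the right at 1.24 and 1.51, while both subunits of the ecdysone receptor lie within 0.12 of 0.

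The 2 genes without a test were enzymes of ecdysteroid synthesis. The gene spo was listed at 0 in all libraries, and dib had a mean normalized count of 2.28 in the authors' deposited tables. Levels varied widely among the others: 22 of 37 genes had a mean normalized count of at least 1000, 11 were under 100 and 4 were under 10. Per kilobase of exon, the scale on which genes can be compared, the level was 2850 normalized counts for Jheh2, the highest of the hormone genes and at percentile 94.6 of all detected genes. Eip71CD stood at 1110 per kilobase, Hr78 at 870, gce at 805, usp at 689 and EcR at 358. The lowest detected levels per kilobase were those of dib (1.15), ImpE2 (2.33), nvd (2.81) and Hr4 (4.50). How many reads a gene rests on follows its count and not this scale. The synthesis enzymes had mean normalized counts of at most 90.3. Hr4, with exons of 13899 bases, had 62.6, above ImpE3 (19.4), jhamt (37.3), ImpL1 (38.2) and sad (38.8). All of these rest on few reads.

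**Figure D2:**
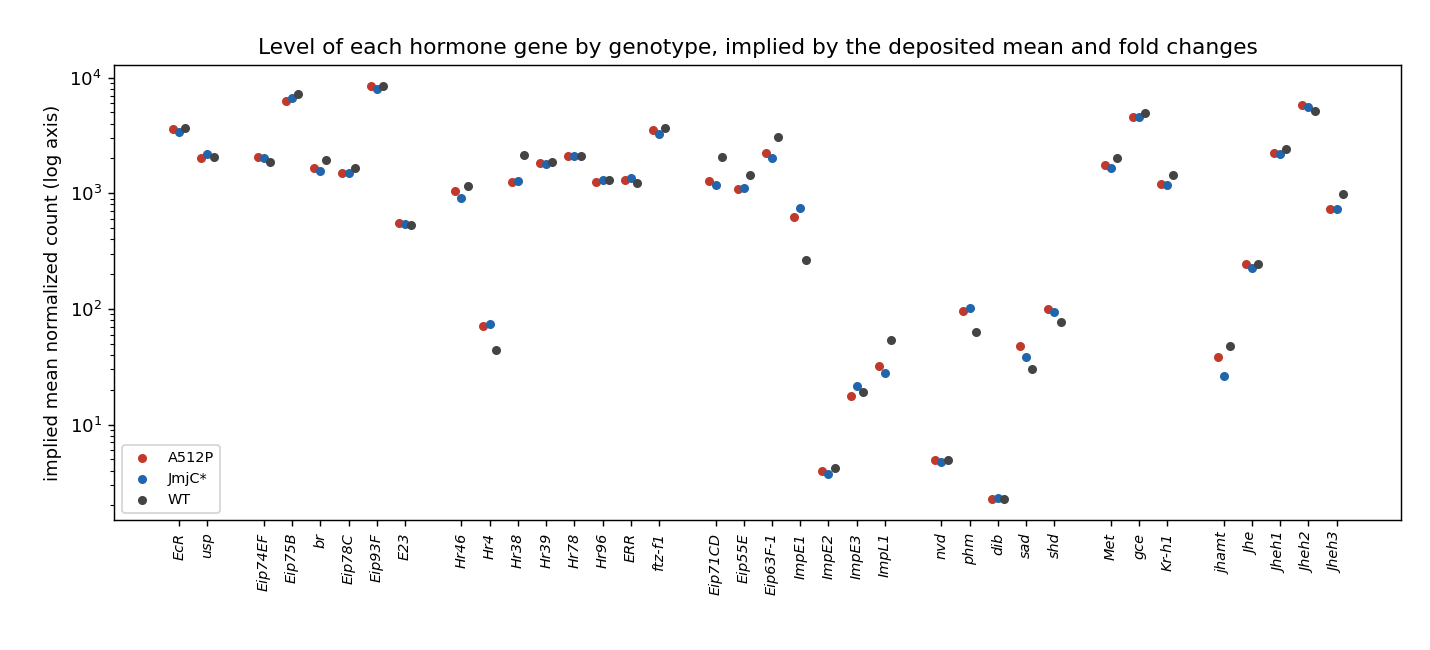
Implied mean normalized count of each hormone gene (log axis) in A512P (red), JmjC* (blue) and WT (black) heads, computed from the deposited mean and fold changes, with no error bar because values per library were not used. Jheh2, Eip93F and Eip75B lie near the top in every genotype, and ImpE1, Hr4 and phm have both mutants above WT.

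The ecdysone receptor itself did not pass in either mutant. EcR, the hormone-binding subunit, had implied counts of 3580 in A512P, 3402 in JmjC* and 3697 in WT heads. In A512P heads EcR stood at log2 -0.05 ± 0.078 (SE) with an adjusted p of 0.738, and in JmjC* heads at -0.12 ± 0.078 with an adjusted p of 0.253, in the authors' deposited tables. The 95% intervals of EcR ran between -0.20 and 0.11 in A512P and between -0.27 and 0.03 in JmjC* heads. Its partner usp, the fly counterpart of the vertebrate retinoid X receptor, stood at -0.04 ± 0.071 in A512P and 0.07 ± 0.071 in JmjC* heads in the authors' deposited tables (adjusted p = 0.741 and 0.495). The exons of usp overlap by 265 bases with Actn on the same strand and by 196 bases with CG4313 on the other, so its counts are uncertain.

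Of the 6 early response genes, 0 changed in A512P, beside 21% of all tested genes. In JmjC* heads 1 fell (16.7%, beside 14.6% of all tested genes). That gene was br (Broad), a family of zinc finger transcription factors that specify the pupal stage, at implied counts of 1668 in A512P, 1562 in JmjC* and 1951 in WT heads. In the authors' deposited tables br had a log2 fold change of -0.32 ± 0.11 in JmjC* heads (adjusted p = 0.0186) and -0.23 ± 0.11 in A512P heads, where it did not pass (adjusted p = 0.142). Both mutants lay below WT for br, and the mutants differed from each other by less than the SE of either. The exons of br overlap by 189 bases with Mur2B on the other strand, at a mean normalized count of 2269, so the count of br is uncertain.

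The other early genes had small values in both mutants. Eip75B, a haem-binding nuclear receptor also tied to the circadian clock, stood at log2 -0.19 ± 0.083 in A512P and -0.12 ± 0.083 in JmjC* heads in the authors' deposited tables (adjusted p = 0.0829 and 0.297). Eip74EF, an ETS-domain transcription factor, was at 0.15 and 0.13 on the log2 scale in A512P and JmjC* heads, and the nuclear receptor Eip78C at -0.15 and -0.16, in the authors' deposited tables. Eip93F (E93), the factor that specifies the adult stage, had the highest mean normalized count of all hormone genes, 8345. It stood at log2 0.01 in A512P and -0.07 in JmjC* heads in the authors' deposited tables. E23, an ABC transporter gene whose product lowers the ecdysone response, was at 0.06 and 0.01.

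Among the 8 other nuclear receptors, Hr4 rose and Hr38 fell in both mutants, and Hr46 fell in JmjC* heads. That is 25.0% changed in A512P and 37.5% in JmjC* heads, beside 21% and 28.8% of all tested genes. Hr38 is the fly member of the NR4A family, whose transcripts are induced by neuronal activity, and its protein can pair with usp. Its implied counts were 1251 in A512P, 1280 in JmjC* and 2147 in WT heads. It was 1.72-fold lower in A512P (log2 -0.78 ± 0.22, adjusted p = 0.00385) and 1.68-fold lower in JmjC* heads (-0.75 ± 0.22, adjusted p = 0.00437) in the authors' deposited tables. Hr38 also had a wide spread for its level: its SE of 0.222 was larger than that of 98.6% of the 1787 tested genes within 1.5-fold of its mean count, whose median SE was 0.096. The exons of Hr38 overlap by 168 bases with CG2617 on the other strand, at a mean normalized count of 51.2, so the count of Hr38 is uncertain.

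Hr4 (X, 1941940 to 2007956, plus strand, BDGP6.54), a repressor within the ecdysone cascade, was a weakly expressed gene. The implied counts of Hr4 were 70.5 in A512P, 73.5 in JmjC* and 43.7 in WT heads. Hr4 rose by 0.69 ± 0.21 on the log2 scale in A512P (adjusted p = 0.0074) and by 0.75 ± 0.21 in JmjC* heads (adjusted p = 0.0021) in the authors' deposited tables. Its exons overlap by 46 bases with those of CG4406 on the other strand, which had the larger mean normalized count, 969, and log2 fold changes of 0.10 and 0.28 in A512P and JmjC* heads. Whether strand was used in counting is not stated by the labels or headers, so part of the reads counted for Hr4 could be those of its neighbour.

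Hr46 (now Hr3), which acts between the early genes and ftz-f1, had implied counts of 1052 in A512P, 906 in JmjC* and 1160 in WT heads. It fell by 0.36 ± 0.13 on the log2 scale in JmjC* heads (adjusted p = 0.0257) and stood at -0.14 ± 0.13 in A512P heads (adjusted p = 0.503) in the authors' deposited tables. The exons of Hr46 overlap by 6466 bases with CG12912 on the same strand, listed at 0, so the count of Hr46 is uncertain. The Hr46 target ftz-f1, a competence factor for later pulses of hormone, did not pass. It stood at log2 -0.04 in A512P and -0.15 in JmjC* heads with an SE of 0.13. The remaining receptors Hr39, Hr78, Hr96 and ERR ranged between -0.07 and 0.09 in A512P and between -0.05 and 0.15 in JmjC* heads, and 0 of them changed. Hr78 was measured most tightly of all, with an SE of 0.065 and a 95% interval between -0.12 and 0.14 on the log2 scale in A512P heads in the authors' deposited tables.

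Among the 7 ecdysone-inducible effectors tested, 1 rose and 4 fell in each mutant. That is 71.4% changed, beside 21% of all tested genes in A512P and 28.8% in JmjC* heads, and 57.1% lower, beside 10.8% and 14.6%. ImpE1 (3L, 8372405 to 8391171, plus strand, BDGP6.54), first found as a hormone-inducible gene of larval imaginal discs, encodes a large protein with low-density lipoprotein receptor repeats. For ImpE1 the implied counts were 619 in A512P, 746 in JmjC* and 262 in WT heads. Both mutants were thus far above WT. ImpE1 rose 2.36-fold in A512P (log2 1.24 ± 0.14, adjusted p = 3.64e-16) and 2.85-fold in JmjC* heads (1.51 ± 0.14, adjusted p = 3.63e-24) in the authors' deposited tables. Counted from the highest fold change, it ranked 96 of 11608 tested genes in A512P and 78 of 11898 in JmjC* heads.

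The other effectors with Imp names did not follow ImpE1. ImpL1 (3L, 13382765 to 13383999, plus strand, BDGP6.54) had implied counts of 32.2 in A512P, 28.0 in JmjC* and 54.2 in WT heads. It fell by 0.75 ± 0.23 on the log2 scale in A512P (adjusted p = 0.00879) and by 0.95 ± 0.23 in JmjC* heads (adjusted p = 0.000339) in the authors' deposited tables. Its SE was close to the highest that the tables hold, so the size of its change is poorly fixed. ImpE2 and ImpE3 had mean normalized counts of 3.98 and 19.4. Their log2 fold changes in the authors' deposited tables were -0.09 and -0.12 in A512P and -0.17 and 0.19 in JmjC* heads, and neither passed.

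A further 3 effector genes named for ecdysone induction, all well expressed, were lower in both mutants. Eip71CD (now MsrA; 3L, 15511052 to 15513202, plus strand, BDGP6.54) encodes methionine sulfoxide reductase A, which repairs oxidized methionine in proteins. Implied counts of Eip71CD were 1268 in A512P, 1171 in JmjC* and 2069 in WT heads. Eip71CD fell by 0.71 ± 0.15 on the log2 scale in A512P (adjusted p = 3.79e-05) and by 0.82 ± 0.15 in JmjC* heads (adjusted p = 5.95e-07) in the authors' deposited tables.

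Eip63F-1 (3L, 3909973 to 3935617, minus strand, BDGP6.54) encodes a calcium-binding protein of the calmodulin type. Its implied counts were 2209 in A512P, 2039 in JmjC* and 3065 in WT heads. It fell by 0.47 ± 0.12 on the log2 scale in A512P (adjusted p = 0.000919) and by 0.59 ± 0.12 in JmjC* heads (adjusted p = 1.22e-05) in the authors' deposited tables. The exons of Eip63F-1 overlap by 132 bases with Eip63F-2 on the other strand, at a mean normalized count of 5.81, so its count is uncertain. Eip55E (now Cth), on chromosome 2R, encodes cystathionine gamma-lyase, which makes cysteine from cystathionine. It had implied counts of 1087 in A512P, 1106 in JmjC* and 1437 in WT heads. The log2 fold change of Eip55E was -0.40 ± 0.097 in A512P (adjusted p = 0.000473) and -0.38 ± 0.097 in JmjC* heads (adjusted p = 0.000806) in the authors' deposited tables. Eip71CD, Eip63F-1 and Eip55E were thus below WT in both mutants.

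**Figure D3:**
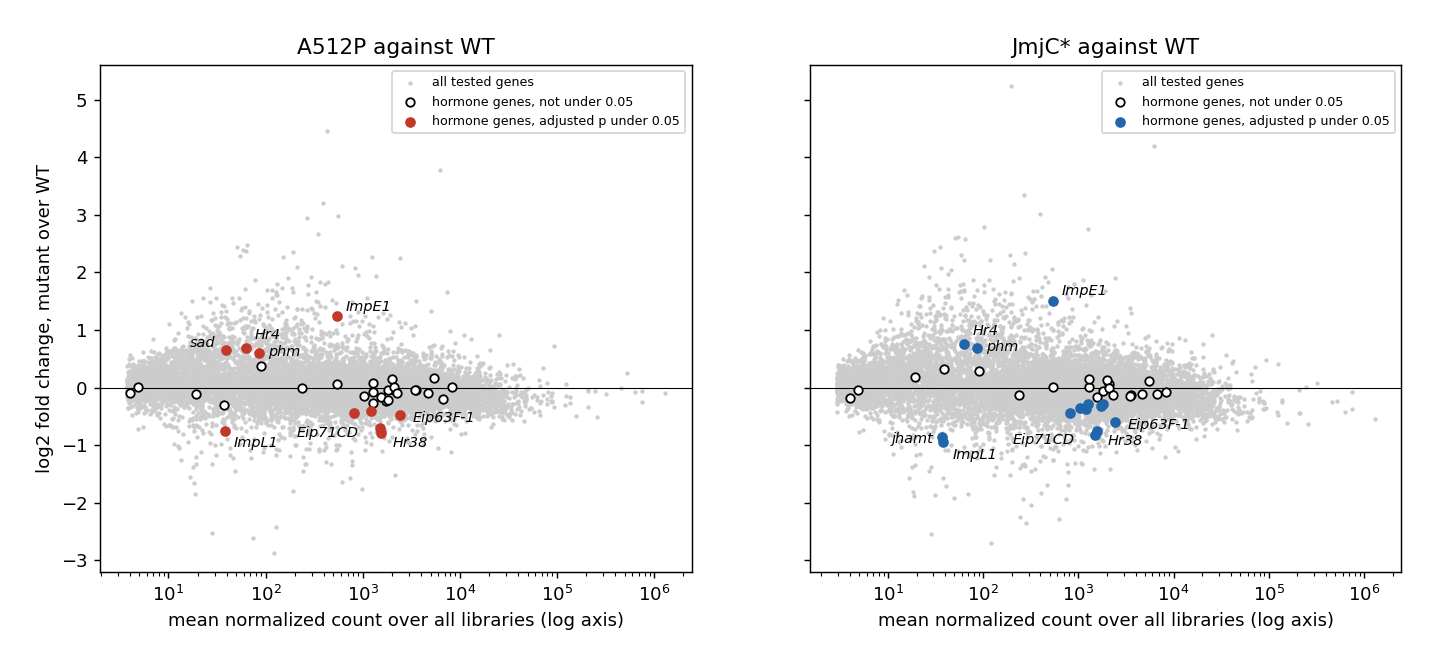
Deposited log2 fold change against mean normalized count (log axis) for all tested genes (grey) and the hormone genes (open: not under 0.05; filled: adjusted p under 0.05), with A512P at left and JmjC* at right. ImpE1 stands above the hormone genes of its level in both panels, while sad, phm, Hr4, ImpL1 and jhamt lie among genes under 100 counts.

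Enzymes of ecdysteroid synthesis were at low levels in heads, and those that passed were higher in the mutants. Of 6 enzymes, 4 were tested, of which 2 rose in A512P and 1 rose in JmjC* heads, with 0 falls. That is 50.0% and 25.0% higher, beside 10.2% and 14.2% of all tested genes, and it rests on phm and sad alone. The gene phm (now phtm; X, 18685766 to 18688433, plus strand, BDGP6.54) encodes the P450 that hydroxylates the ecdysteroid side chain at an early step. For phm the implied counts were 95.7 in A512P, 101 in JmjC* and 62.8 in WT heads. The rise of phm was 0.61 ± 0.21 on the log2 scale in A512P (adjusted p = 0.0232) and 0.69 ± 0.21 in JmjC* heads (adjusted p = 0.00545) in the authors' deposited tables.

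The mitochondrial P450 gene sad (3R, 11877235 to 11879754, plus strand, BDGP6.54) carries out the last step before ecdysone. It had implied counts of 47.8 in A512P, 38.1 in JmjC* and 30.5 in WT heads. In the authors' deposited tables sad rose by 0.65 ± 0.22 on the log2 scale in A512P (adjusted p = 0.0216) and stood at 0.32 ± 0.22 in JmjC* heads (adjusted p = 0.292). The exons of sad overlap by 53 bases with CG6962 on the other strand, at a mean normalized count of 219, so the count of sad is uncertain. The enzyme shd, which turns ecdysone into the active hormone in target tissues, stood at 0.38 ± 0.21 in A512P and 0.29 ± 0.21 in JmjC* heads and did not pass (adjusted p = 0.202 and 0.313). The sterol oxygenase gene nvd, the first enzyme of the chain, had a mean normalized count of 4.85 and log2 fold changes of 0.01 in A512P and -0.05 in JmjC* heads in the authors' deposited tables.

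Several of these enzymes are also expressed in the ovary, so ovarian and germ-line markers were read beside them. Of 11 markers looked for, 10 were found, at mean normalized counts between 0.216 for Vm32E and 2830 for aret, a gene also used outside the germ line. The eggshell genes Vm26Ab and Cp36 had 2.87 and 2.93 normalized counts, and the germ-line gene nos 1.76, in the authors' deposited tables. Among the markers tested, 0 of 4 changed in A512P and 1 of 5, vas, rose in JmjC* heads (log2 1.03 ± 0.23, adjusted p = 9.34e-05). The mean normalized count was 20.6 for vas, 17.6 for otu, 6.57 for osk and 25.5 for dec-1, against 38.8 for sad, 86.6 for phm and 90.3 for shd. Unlike vas, otu and osk, dec-1 had a fold change but no p-value in either mutant, so its level is uncertain. Apart from aret, the markers thus ran from near 0 to levels not far below that of sad, and their part in the results for the synthesis enzymes was not tested. Of the other markers listed with the larval prothoracic gland, spok and sro had 1.66 and 3.10 normalized counts and the broadly expressed zinc finger gene mld 2581.

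Of the 3 genes of juvenile hormone reception, Met and Kr-h1 fell in JmjC* heads and gce did not pass, while 0 changed in A512P heads. The 66.7% lower in JmjC* heads stood beside 14.6% of all tested genes, and the 0 in A512P beside 21% changed. Met, 1 of the 2 receptors of the hormone, had implied counts of 1739 in A512P, 1659 in JmjC* and 2027 in WT heads. It fell by 0.29 ± 0.11 on the log2 scale in JmjC* heads (adjusted p = 0.0351) and stood at -0.22 ± 0.11 in A512P heads (adjusted p = 0.149) in the authors' deposited tables. Its paralogue gce, at a mean normalized count of 4674, did not pass, with -0.10 ± 0.090 in A512P and -0.11 ± 0.090 in JmjC* heads (adjusted p = 0.503 and 0.39). On the other strand CR44961 overlaps the exons of gce by 2197 bases and CR44429 by 167, so its count may hold reads of these.

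Kr-h1, the zinc finger target of the hormone, had implied counts of 1204 in A512P, 1176 in JmjC* and 1441 in WT heads. In the authors' deposited tables its log2 fold change was -0.29 ± 0.11 in JmjC* heads, past the threshold (adjusted p = 0.0384), and -0.26 ± 0.11 in A512P heads, where it was not (adjusted p = 0.0894). Met and Kr-h1 thus lay on the same side of WT in both mutants, and their calls in JmjC* heads were near the threshold. The exons of Kr-h1 overlap by 4168 bases with CG45075 on the same strand, listed at 0, so the count of Kr-h1 is uncertain.

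Among the 5 juvenile hormone enzymes, Jheh3 fell in both mutants and jhamt fell in JmjC* heads. That is 20% lower in A512P and 40% in JmjC* heads, beside 10.8% and 14.6% of all tested genes. In either direction, 21% and 28.8% of all tested genes changed. The methyltransferase gene jhamt (2L, 16365903 to 16367039, plus strand, BDGP6.54) catalyses a late step of hormone synthesis and marks the corpus allatum. Its implied counts were 38.5 in A512P, 26.1 in JmjC* and 47.4 in WT heads. It was 1.82-fold lower in JmjC* heads (log2 -0.86 ± 0.22, adjusted p = 0.000924) and stood at -0.30 ± 0.22 in A512P heads (adjusted p = 0.372) in the authors' deposited tables. The other genes listed with the corpus allatum did not pass: AstC-R1, a receptor for allatostatin C, was at log2 -0.16 and -0.21, and Jhe, the esterase that degrades the hormone, at -0.00 and -0.13 in A512P and JmjC* heads.

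The 3 juvenile hormone epoxide hydrolases, which also break the hormone down, stand in a row on the minus strand of chromosome 2R, with 680 bases between Jheh1 and Jheh2 and 2130 between Jheh2 and Jheh3. Only Jheh3 of these changed in either mutant. Its implied counts were 725 in A512P, 728 in JmjC* and 986 in WT heads. In the authors' deposited tables Jheh3 fell by 0.44 ± 0.11 on the log2 scale in A512P (adjusted p = 0.000485) and by 0.44 ± 0.11 in JmjC* heads (adjusted p = 0.000387). Jheh2, the most abundant, stood at 0.17 ± 0.097 and 0.12 ± 0.097 in A512P and JmjC* heads, and Jheh1 at -0.10 ± 0.13 and -0.12 ± 0.13 (adjusted p between 0.218 and 0.656).

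Marker genes of head cell types were read beside these results, and their part in them was not tested. Over all tested genes 21% changed in A512P (10.2% higher, 10.8% lower) and 28.8% in JmjC* heads (14.2% higher, 14.6% lower). Fat body markers gave 0 changes among 7 in A512P, with log2 fold changes between -0.50 and 0.25, and 2 falls among 7 in JmjC* heads, between -0.62 and 0.14, in the authors' deposited tables. Of 5 neuronal markers 1 fell in each mutant (20%), beside 10.8% and 14.6% of all tested genes lower in A512P and JmjC* heads. The median log2 fold changes of the neuronal markers were -0.16 in A512P and -0.21 in JmjC* heads. Of 5 photoreceptor markers 4 fell in A512P (80.0%) and 2 in JmjC* heads (40.0%), and of 6 blood cell markers 3 rose in each (50.0%). Of 4 glial markers 2 fell in A512P (50.0%), and 1 rose and 3 fell in JmjC* heads, while of 5 muscle markers 1 fell in A512P (20%) and 2 in JmjC* heads (40.0%). The neuronal and photoreceptor markers had mean normalized counts between 7366 and 756320, so the tissues of a head were present at high levels.

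Whether A512P and JmjC* differed in a hormone gene was tested by subtracting the JmjC* log2 fold change from that of A512P, with an SE that takes them as independent. Of 35 hormone genes, 0 differed at an adjusted p under 0.05 by this two-sided normal test, and 0 had an unadjusted p under 0.05. Among all genes tested in both tables, 102 of 11608 differed (0.879%), 54 higher in A512P (0.465%) and 48 lower (0.414%). The shared WT libraries make this SE an upper bound. Both fold changes are pulled towards 0 in genes with few reads, such as jhamt and sad, so their difference may be understated too. With a correlation of 0.5 between both fold changes, the count over all genes was 429 and that of hormone genes remained 0, with a lowest adjusted p of 0.181.

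The widest difference was that of jhamt, at 0.56 on the log2 scale with a 95% interval between -0.06 and 1.18, an interval that includes 0 near its lower end. For sad the difference was 0.33 (between -0.29 and 0.95), for Hr46 0.22 (between -0.15 and 0.58) and for ImpE1 -0.27 (between -0.66 and 0.12). Narrower intervals were had for abundant genes: the difference was 0.02 for Hr78 (between -0.16 and 0.20) and 0.07 for EcR (between -0.14 and 0.29). Calls made in 1 mutant alone, as for sad, br, Hr46, Met, Kr-h1 and jhamt, are therefore not shown to differ between the mutants.

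**Figure D4:**
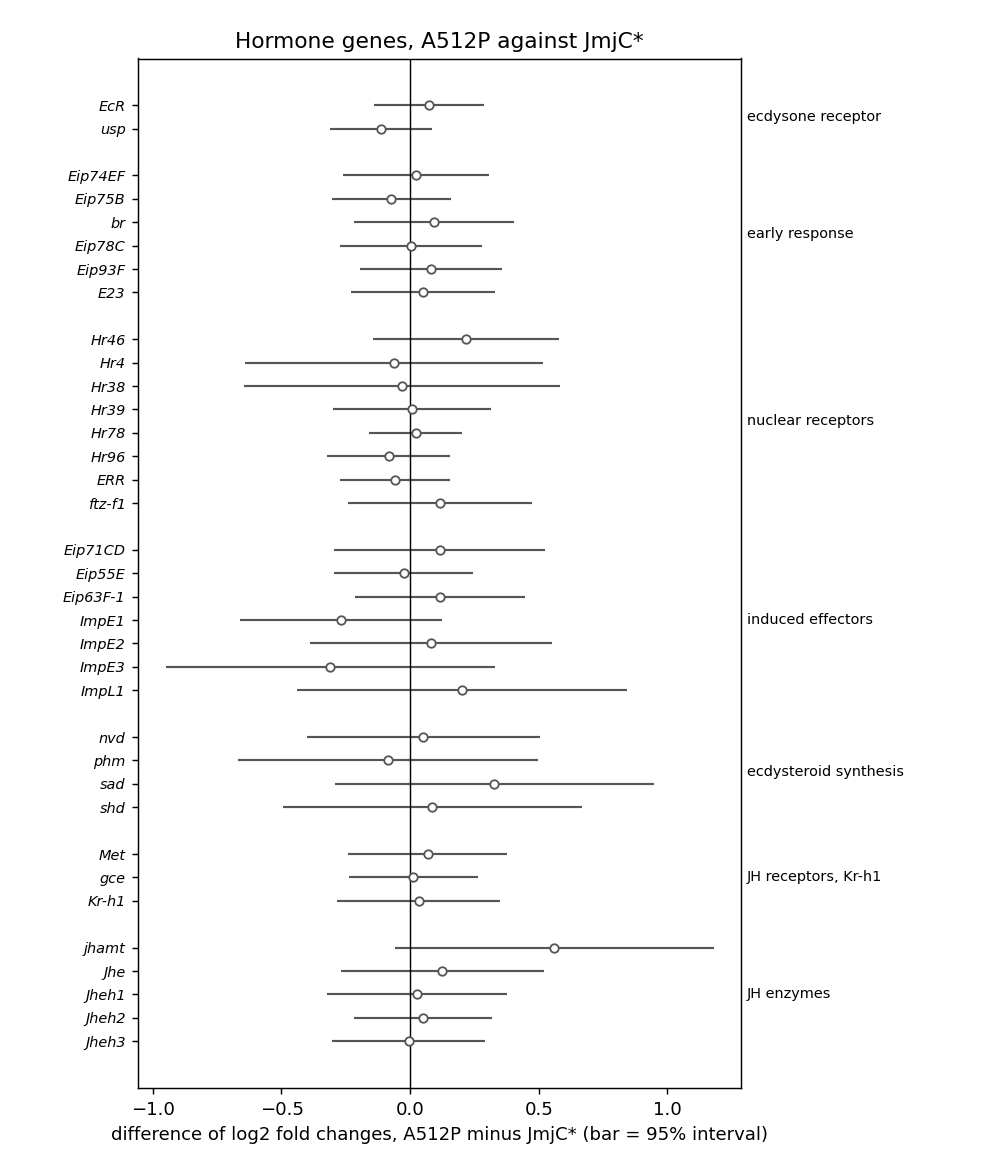
Difference of the deposited log2 fold changes, A512P minus JmjC*, for the 35 hormone genes tested in both tables, with 95% intervals that take both fold changes as independent. Every interval reaches across 0; that of jhamt, centred at 0.56, comes nearest to leaving it.

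Other genes of the same pathways were read from lists that do not hold the 37 genes. The share changed in each list stands beside 21% of all tested genes in A512P (10.2% higher, 10.8% lower) and 28.8% in JmjC* heads (14.2% higher, 14.6% lower), and its median log2 fold change beside 0.0027 and 0.011. Of 13 further genes of ecdysteroid synthesis, import and breakdown found, 10 were tested in A512P with 0 changes, and 11 in JmjC* heads with 2 rises and 1 fall (27.3%), with medians of -0.06 in A512P and 0.09 in JmjC* heads. In JmjC* heads Cyp6t3, a P450 of ecdysteroid synthesis, rose by 0.42 ± 0.12 on the log2 scale (adjusted p = 0.00283) and Start1, a sterol carrier, by 0.22 ± 0.076 (adjusted p = 0.0175) in the authors' deposited table. Fdx1, a ferredoxin that donates electrons to mitochondrial P450 enzymes, fell by 0.47 ± 0.14 there (adjusted p = 0.00519). The ecdysone importer Oatp74D stood at -0.04 and 0.11 in A512P and JmjC* heads, and Cyp18a1, which inactivates the hormone, at -0.26 and -0.31, none of these past the threshold (adjusted p between 0.104 and 0.832). Cyp18a1 lies 105 bases from phm on the other strand, and the pair thus had opposite signs in both mutants.

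The list of ecdysone receptor partners, which also holds the membrane receptor gene DopEcR and lid (kdm5) itself, had 16 genes found. Of these, 1 rose in A512P (6.25%) and 2 rose in JmjC* heads (12.5%), with 0 falls and medians of -0.02 and -0.01. Both shares were below those of all tested genes. Hsp83, the chaperone that helps steroid-type receptors bind hormone, rose by 0.91 ± 0.20 on the log2 scale in each mutant (adjusted p = 0.000119 in A512P and 8.09e-05 in JmjC*) in the authors' deposited tables. The chromatin factor dre4 rose by 0.32 ± 0.072 in JmjC* heads (adjusted p = 0.000108). The coactivator tai, the corepressor Smr and the membrane ecdysone receptor gene DopEcR did not pass, at -0.10, -0.10 and 0.01 in A512P and -0.11, -0.06 and 0.12 in JmjC* heads. Of 8 other nuclear receptor genes tested, 1 changed in each mutant (12.5%), and the medians were -0.0045 in A512P and 0.03 in JmjC* heads. This was svp, the fly COUP-TF, which fell by 0.28 ± 0.070 in A512P (adjusted p = 0.000986) and by 0.37 ± 0.070 in JmjC* heads (adjusted p = 1.84e-06) in the authors' deposited tables.

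On the juvenile hormone side, 1 of 7 tested genes of precursor synthesis rose and 1 fell in A512P (28.6%), and 1 fell in JmjC* heads (14.3%), with medians of 0.02 and -0.0023. The isoprenyl diphosphate synthase gene qm fell by 0.29 ± 0.090 on the log2 scale in A512P (adjusted p = 0.00827) and by 0.31 ± 0.090 in JmjC* heads (adjusted p = 0.00304) in the authors' deposited tables. Fpps, which makes the farnesyl precursor, rose by 0.27 ± 0.099 in A512P heads (adjusted p = 0.0392), a call that ended when the adjustment ran over every gene with a p-value (0.0508). In JmjC* heads Fpps stood at 0.24 (adjusted p = 0.0533). Among 7 hormone-induced or related genes, 1 changed in A512P (14.3%) and 2 in JmjC* heads (28.6%), with medians of 0.20 and 0.02. JhI-21, an amino acid transporter, rose by 0.56 ± 0.13 in JmjC* heads (adjusted p = 0.000123), and takeout (to) fell by 0.50 ± 0.15 there (adjusted p = 0.00393). The gene changed in A512P heads was Jhedup, a duplicate of the esterase gene Jhe that lies 644 bases from it, which rose by 0.52 ± 0.099 (adjusted p = 4.45e-06) in the authors' deposited table. Jhedup stood at 0.02 in JmjC* heads.

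Genes of neuroendocrine control gave 1 rise and 3 falls among 15 tested in A512P, and 0 rises and 6 falls among 15 in JmjC* heads. That is 26.7% changed in A512P, beside 21% of all tested genes. In JmjC* heads 40.0% were lower, beside 14.6% of all tested genes. The medians were -0.24 in A512P and -0.36 in JmjC* heads. AstC, whose peptide restrains juvenile hormone synthesis in several insects, had implied counts of 1374 in A512P, 818 in JmjC* and 2178 in WT heads. It fell by 0.66 ± 0.072 on the log2 scale in A512P (adjusted p = 7.37e-18) and by 1.41 ± 0.074 in JmjC* heads (adjusted p = 3.55e-77) in the authors' deposited tables. AstA fell by 0.69 ± 0.10 and 0.90 ± 0.10, and its receptor AstA-R2 by 0.65 ± 0.19 and 0.62 ± 0.19, in A512P and JmjC* heads. The bursicon receptor gene rk fell by 0.36 ± 0.12 in JmjC* heads (adjusted p = 0.0108). Eh, the eclosion hormone gene, rose by 0.58 ± 0.17 in A512P heads (adjusted p = 0.0037), against 0.01 in JmjC* heads. Ptth, whose peptide drives larval ecdysone synthesis, did not pass, at -0.11 and -0.03.

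Of 37 metamorphosis effector genes found, 20 were tested in A512P with 3 rises and 0 falls, and 21 in JmjC* heads with 3 rises and 2 falls. That is 15.0% changed in A512P and 23.8% in JmjC* heads, both below the shares of all tested genes, with medians of 0.05 and 0.02. Edg91, an ecdysone-dependent cuticle gene of the prepupa, had implied counts of 344 in A512P, 122 in JmjC* and 109 in WT heads. In the authors' deposited tables Edg91 rose by 1.66 ± 0.18 on the log2 scale in A512P (adjusted p = 1.47e-17) and stood at 0.17 ± 0.19 in JmjC* heads (adjusted p = 0.547). The initiator caspase gene Dronc rose by 0.37 ± 0.12 in A512P (adjusted p = 0.0105) and 0.42 ± 0.12 in JmjC* heads (adjusted p = 0.00191). Sgs1, a larval glue protein gene at 81.7 normalized counts, rose by 0.54 ± 0.20 in A512P (adjusted p = 0.0415) and 0.57 ± 0.20 in JmjC* heads (adjusted p = 0.0213), although its A512P call ended with the wider adjustment (0.0538). The zinc finger genes mamo and cbt fell by 0.33 ± 0.11 and 0.24 ± 0.081 in JmjC* heads (adjusted p = 0.00895 and 0.0127) in the authors' deposited table. Of the 37 genes, 8 were listed at 0, most of them of the Eig71E cluster.

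**Figure D5:**
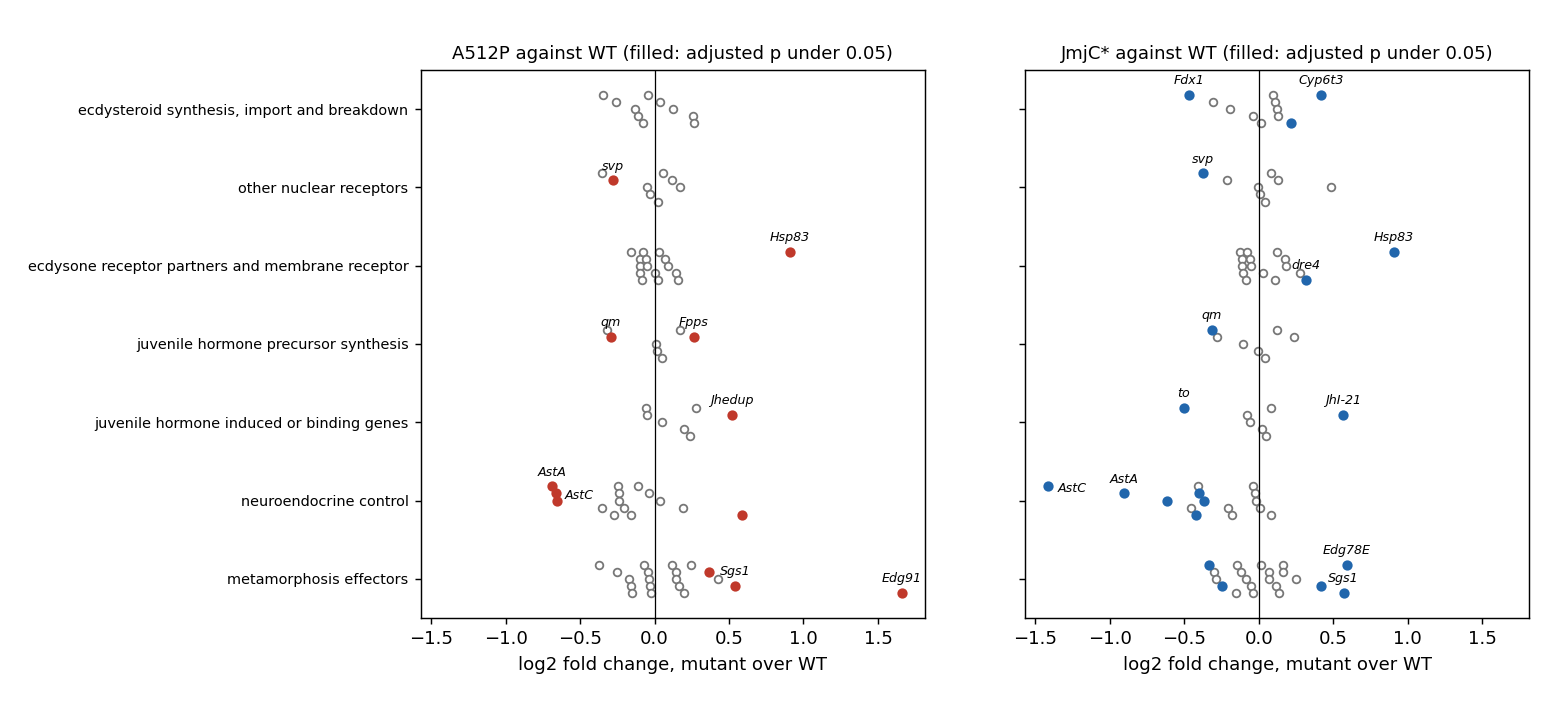
Deposited log2 fold change, mutant over WT, of other genes of the hormone pathways in A512P (left) and JmjC* (right) heads; each point is a tested gene of the list at left, filled where the adjusted p is under 0.05. Edg91 stands at 1.66 in A512P and 0.17 in JmjC* heads, and AstC at -0.66 and -1.41.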

How the data were processed

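Whole-head mRNA-seq from 9 libraries was summarised by the authors in 2 deposited tables, A512P against WT and JmjC* against WT, and groups follow the library titles. The submitters' processing notes list STAR and DESeq2 with no version or setting; neither build nor annotation nor strand use is stated in labels or headers. Per the file headers, the deposited signal is a mean normalized count (identical in both tables for 17478 genes), with a log2 fold change, its SE, a score (the Wald statistic), and a p-value with its adjusted p-value. The deposited adjusted p was read as it stands, at a threshold of 0.05, and no count model was fitted, since the tables hold no counts per library.

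Differences between mutants, implied counts and 95% intervals were computed in Python 3.11.15 with pandas 2.3.3 and scipy 1.17.1; the difference test used Benjamini-Hochberg adjustment over 11608 genes and was tested on simulated data. Gene positions come from Ensembl release 115 (BDGP6.54) by identifier: 36 of the 37 hormone genes matched, 34 with the same exon length; the file's own build may differ. Exons of 14 hormone genes overlapped those of another listed gene in BDGP6.54, 11 of them with a gene on the other strand. They were usp, br, Hr4, Hr38, Hr46, Hr78, ERR, ftz-f1, Eip63F-1, spo, dib, sad, gce and Kr-h1, whose counts are thus uncertain. Genes are named as in the authors' tables. All 37 are described; from each further list, up to 4 changed genes per mutant with the smallest adjusted p are named with values, besides a few of known role that did not pass. The genes and lists were chosen with earlier results of these data known. Precision rests on the SE, and depth per library is unknown.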

Additional observations from a re-analysis of the deposited data

Results flagged for a closer look

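None of the 37 hormone genes differed between the mutants, but 3 of the other pathway genes did by the test of the difference (A512P minus JmjC*, adjusted over 11608 genes). Edg91, the prepupal cuticle gene, differed by 1.49 on the log2 scale (95% interval 0.98 to 2.01, adjusted p = 5.18e-06): it rose in A512P heads and did not pass in JmjC* heads. AstC, the allatostatin C precursor, differed by 0.75 (0.54 to 0.95, adjusted p = 3.93e-10), with a fall in both mutants that was deeper in JmjC* heads. Jhedup, the duplicate of the juvenile hormone esterase gene, differed by 0.50 (0.22 to 0.77, adjusted p = 0.0462), near the threshold.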

How the results depend on the processing

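The number of changed hormone genes was 10 in A512P heads, and under the alternatives run it was 8 with an adjusted p under 0.01 (13.9% of all tested genes), 10 with adjustment over every gene with a p-value (14.9%), 8 with a mean normalized count of at least 50 (24%) and 7 with a fold change of at least 1.5 (7.29%). It was 14 in JmjC* heads and, in the same order, 10 (20.5%), 14 (21.6%), 12 (33.5%) and 8 (9.56%); the last alternative keeps only large changes by construction. With the count filter, ImpL1, sad, jhamt, ImpE3, nvd and ImpE2 were no longer tested. The 8 and 12 genes changed with that filter are thus out of fewer hormone genes than the 35 tested without it. Centring on the median of all tested genes moved the medians of the hormone genes to -0.073 in A512P and -0.13 in JmjC* heads. Among other genes, Fpps in JmjC* heads passed with the count filter (adjusted p = 0.0471), and the differences between mutants for to and Eh passed with a correlation of 0.5 (0.000183 and 0.0211). No paired analysis was possible because values per library were not used here; for the same reason leaving out replicates and a second count test were not run.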

Other observations

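Genes that lie within 5 kb of a hormone gene were also read, with examples chosen after their values were seen. CG18190, which lies 391 bases from Jheh1 on the same strand and had a mean normalized count of 58.8, stood at log2 2.39 ± 0.22 in A512P and 2.31 ± 0.22 in JmjC* heads in the authors' deposited tables (adjusted p = 4.52e-25 and 1.79e-23), while Jheh1 itself did not pass. Poc1, 4300 bases from ImpL1, stood at 0.80 ± 0.17 and 1.25 ± 0.17, against the falls of ImpL1. CG7120, 4829 bases from ImpE1, stood at -0.21 ± 0.076 in A512P and -0.12 ± 0.076 in JmjC* heads, so the rise of ImpE1 was not shared by this neighbour.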
